A study of Mus musculus with 3 samples.

Results

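Upper dermal fibroblasts of newborn back skin are the fibroblasts of the dermal layer next to the epidermis. In the P0 library they were selected cell by cell on 17 genes. A cell had to be at 0 for Cdh5, Ptprc, Sox10, Trp63 and Sox18, which mark vessels, blood cells, neural crest derivatives, epidermis, and vessels or dermal papilla. Its number of upper dermal genes with at least 1 UMI (U, of Wif1, Itih5, Pth1r, Twist2, Egfl6 and Wisp1) also had to exceed its number of deep dermal genes with at least 1 UMI (D, of Dpt, Mfap4, Ly6a, Clec3b, Agtr2 and Aspn) by at least 2. A UMI is a tag that counts each captured RNA molecule once. The rule selected 1460 of the 2680 P0 cells with the same zeros, or 54.5% (exact binomial 95% interval 52.6% to 56.4%). They were 28.8% of the 5065 cells of the P0 library, and the series held 16235 cells in all.

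The series profiled back skin from C57BL/6 males, of the stages E13.5, E16.5 and P0, as single cells in droplets, read from the 3′ ends of their RNA. Each stage is 1 library made from the pooled skin of several animals. Embryonic skin was digested with trypsin and P0 skin with collagenase IV, so that stage, library and digestion cannot be told apart. The labels name no transgene, mutation or treatment in any group. With 1 library per stage, and cells that are not replicates, no difference below has a replicate check, no test was run, and every interval covers counting error only. The libraries held 46599806 to 66239195 UMIs. P0 barcodes recurred in the other libraries 32 times (E16.5) and 41 times (E13.5).

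Dermal fibroblasts build the collagen matrix of the skin. Their upper lineage gives rise to the papillary dermis, the dermal papilla and the arrector pili muscle, and their deeper lineage to the reticular dermis and to fat-forming cells of the hypodermis. Wnt signalling is known to shape the upper layer: Wnt ligands bind Frizzled receptors, β-catenin then joins LEF and TCF factors on DNA, and the targets include inhibitors of the pathway itself, such as Axin2 and Nkd1. R-spondins raise the response to Wnt ligands, and Wls carries the ligands to the cell surface.

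Of the 2680 cells, 300 met the mirrored rule (D − U of at least 2) and are called deep cells here, and 920 lay between. Upper cells had a median of 5689.5 UMIs and 1989 genes, and deep cells 7057 UMIs and 2116 genes. Upper cells held on average 4.99 upper and 1.8 deep genes of the rule, and deep cells 1.87 and 4.79. Among deep genes of the rule, a UMI of Dpt was found in 64.7% of upper, 80.0% of deep and 6.37% of endothelial cells thinned to 3500 UMIs (76.8%, 89.0% and 18.7% without thinning), and one of Mfap4 in 46.4%, 74.3% and 13.1% (55.5%, 84.0% and 32.6%). Endothelial cells, with a mean D of 1.57, are given for comparison, and whether their UMIs of these genes are their own or free RNA was not tested.

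Just inside the rule, at U − D = 2, lay 447 cells, and just outside it, at U − D = 1, lay 360. Among the genes of the rule, Itih5 was at 487 CPM (UMIs of the gene scaled to 1e+06 UMIs of the group) inside and 238 outside, and Ly6a at 23.2 and 92.9 CPM. The deep gene Dpt had the other order, at 510.2 CPM inside and 389.9 outside, and Mfap4 and Aspn were close, at 1241 and 429 CPM inside and 1331 and 456 outside. Genes that the rule does not use differed to unlike degrees between these neighbours. The collagen-binding proteoglycan Lum was at 3892 CPM inside and 2248 outside, the Wnt antagonist Nkd1 at 195 and 101, and the growth factor binder Igfbp7 at 208 and 606. Anxa1 was close, at 412 and 417 CPM, and Fabp4 was at 413 inside and 365 outside, although it was among the 15 lowest genes of upper cells against deep cells.

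**Figure D1:**
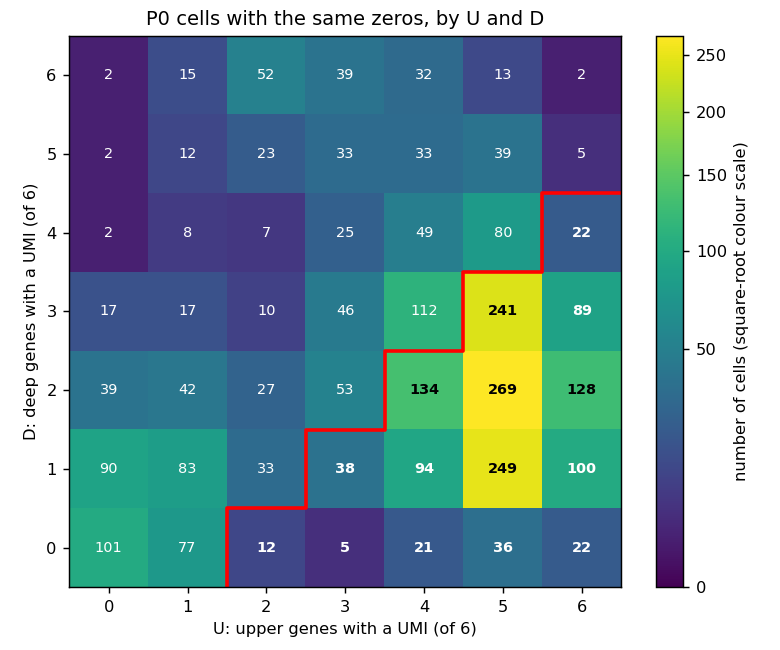
Number of P0 cells with the same 5 zeros at each pair of U (x axis, upper genes with a UMI) and D (y axis, deep genes with a UMI); bold numbers below and to the right of the red line are the 1460 members. The fullest squares, with 249, 269 and 241 cells, hold cells with 5 upper genes and 1, 2 or 3 deep genes.

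The members carried fibroblast genes, and a list of 8 summed to 43059 CPM in upper, 45263 in deep and 7565 in endothelial cells. Against deep cells, 1 of the 8 (Lum) was at least 2-fold higher and 1 (Pdgfrb) lower, beside 2.98% and 3.88% of all genes. The list median was −0.12 beside 0.10. Pdgfrb was also at least 2-fold lower against the other P0 cells with the same zeros and against upper cells of E16.5. Col1a1, a chain of type I collagen, was at 10005 CPM, Col3a1 at 14765 CPM and Dcn, the proteoglycan decorin, at 2817 CPM. UMIs of such genes were found in other cells too: with every cell thinned to 3500 UMIs, a UMI of Col1a1 was found in 99.3% of members and in 50.2% of the 267 endothelial cells of the same library, whose median depth was 10003 UMIs (shares without thinning 99.8% and 81.3%). Pdgfra, a receptor that fibroblasts carry, was found in 27.1% of thinned members and 1.87% of endothelial cells (39.8% and 7.12% without thinning).

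Markers of other cell types were low or mixed in the members. Summed over each list, 8 endothelial genes were at 49.1 CPM, against 4874 in endothelial cells, and 9 immune genes at 61.5 CPM in upper and 194 in deep cells. The 12 keratinocyte genes summed to 1311 CPM in upper, 2279 in deep and 1125 in endothelial cells. The 12 adipocyte genes summed to 487 CPM in upper and 5251 in deep cells, and the 12 contractile and pericyte genes to 457 and 1657. Erythroid genes summed to 1401 and 708 CPM. The 20 dermal condensate and papilla genes summed to 454.5 CPM in upper, 368.6 in deep and 242.6 in endothelial cells. Of the 14 compared with deep cells, 3 were at least 2-fold higher and 3 lower, beside 2.98% and 3.88% of all genes. Whether papilla cells at 0 for Sox18 remained among the members was not tested. Some of these sums were uneven among the member groups described below. Keratinocyte genes summed to 20409 CPM in group 8 (26 cells). In the other groups they summed to 630 to 810.5 CPM, below the endothelial cells. Contractile and pericyte genes summed to 3371 CPM in group 6 (92 cells) and at most 572.4 in the others. Erythroid genes summed to 8735 CPM in group 7 (89 cells) and at most 2451 in the others. The part of these markers in the differences below was not tested.

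Over 9793 genes with at least 50 UMIs in upper and deep cells together, 292 (2.98%) were at least 2-fold higher in upper cells and 380 (3.88%) at least 2-fold lower, on the scale of log2(CPM + 10) and without the genes of the rule. The median difference was 0.10, and the 5th and 95th percentiles were −0.85 and 0.82. Because the rule itself separates upper from deep cells, every value of this contrast describes what was selected, and nothing is read from its counts. Of 25 further upper dermal genes, 20 could be compared, 12 were at least 2-fold higher and 0 lower, with a median of 1.29. Of 25 further deep dermal genes, 21 could be compared, 16 were at least 2-fold lower and 1, Fbln2, was higher, with a median of −2.02. Genes could pass the minimum of 50 UMIs through the group where they are high. Dkk1 (7 UMIs in deep cells), Trps1 (41 in deep cells) and Igfbp6 (22 in upper cells) did so. The counts and medians of these and the later lists against deep cells are therefore no support for a difference. Of 18 immediate early and dissociation genes, 0 were at least 2-fold higher and 7 lower in upper cells, with a median of −0.65. The part of these genes in the contrast was not tested.

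The 15 genes with the largest excess in upper cells, 13 of which are described, included transcription factors, Wnt pathway genes and genes of the cell surface. Trps1, a GATA-type repressor needed for normal hair, was at 211 CPM in upper cells (95% interval 202 to 221, 1932 UMIs) and 17.7 in deep cells (12.7 to 24.0, 41 UMIs), with a log2 difference between 2.70 and 3.29 (95% interval). Osr2, an odd-skipped zinc finger factor (chr15:35296098-35303305, GRCm38), was at 792 and 131 CPM, and was found in 84.5% of thinned upper cells, 29% of deep cells and 6.74% of endothelial cells (92.4% and 16.9% of upper and endothelial cells without thinning).

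Genes of cell contact and secretion followed. Gja1, the gap junction protein connexin 43, was at 637 CPM in upper and 86.1 in deep cells. Stmn2, a regulator of microtubules best known in neurons, was at 175 and 7.32 CPM, with 77.0 CPM in endothelial cells. The collagen gene Col26a1 (chr5:136741759-136883209) was at 199 and 11.2 CPM. The retinoic acid carrier Crabp1 was at 193 and 21.5 CPM. The deep cells had UMIs of each of these genes. Enho, Gm1673 and Gm14964 were at 115, 735 and 135 CPM in upper cells and 10.8, 101 and 13.4 in deep cells.

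**Figure D2:**
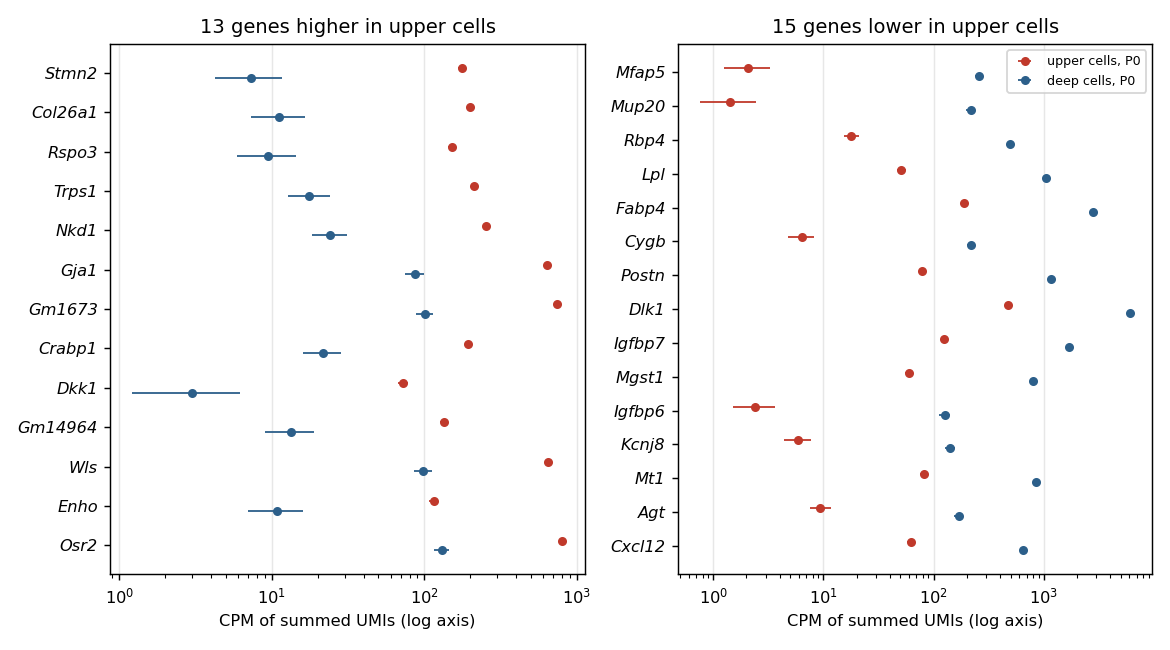
CPM of summed UMIs on a log axis in upper (red) and deep (blue) cells at P0 for 13 of the genes with the largest excess and the 15 with the largest deficit in upper cells; bars are exact Poisson 95% limits. In none of the 28 genes do the limits overlap: Osr2 and Gja1 lie at 792 and 637 CPM in upper cells, and Dlk1 and Fabp4 at 6083 and 2810 CPM in deep cells.

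The 15 lowest genes in upper cells included genes of the deep matrix, of fat and of growth factor binding. Mfap5 (chr6:122505845-122529290), a microfibril protein of elastic fibres, was at 2.08 CPM in upper cells (1.25 to 3.25, 19 UMIs) and 257 in deep cells (237 to 279), a log2 difference of −4.47. Dlk1, an imprinted inhibitor of fat cell formation (chr12:109452823-109463336), was at 469 and 6083 CPM. The matrix protein Postn, periostin, was at 79.3 and 1160 CPM, and the chemokine Cxcl12 at 63.0 and 652.

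Genes of fat and of lipid transport stood beside them. Lpl, lipoprotein lipase, was at 51.0 CPM in upper and 1046 in deep cells, and Rbp4, the carrier of retinol, at 17.9 and 492. Fabp4, a fatty acid carrier of fat and endothelial cells, was at 190.4 and 2810 CPM, with 6060 in endothelial cells. The adipocyte sums given above moved with these genes, and 9 of 10 adipocyte genes compared were at least 2-fold lower in upper cells, beside 3.88% of all genes. Igfbp6 and Igfbp7, which bind insulin-like growth factors, were at 2.41 and 123 CPM in upper and 126 and 1679 in deep cells. Mup20, Cygb, Mgst1, Kcnj8, Mt1 and Agt completed the 15, with 1.42 to 81.4 CPM in upper and 141 to 856 in deep cells.

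Wnt genes were compared next. Of 46 Wnt ligands, inhibitors, receptors and targets, 34 could be compared with deep cells, 13 were at least 2-fold higher and 2 at least 2-fold lower, beside 2.98% and 3.88% of all genes, with a median of 0.76 beside 0.10. Of the 13, Nkd1 alone had at least 50 UMIs in deep cells, and the others passed the minimum through the upper cells, where they are high, so the count and the median are no support for a difference. Among the secreted activators, Rspo3 (chr10:29452416-29535867), an R-spondin, was at 151 CPM in upper and 9.47 in deep cells, 3.05 apart on the log2 scale (interval 2.72 to 3.35). Its relative Rspo1 was at 58.4 and 7.32 CPM. Wls, which is not on this list but was among the 15 highest, was at 642 and 98.2 CPM. The ligands Wnt11 and Wnt16 were low in both, at 13.7 and 18.4 CPM in upper and 1.72 and 2.15 in deep cells.

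Inhibitors and targets of the pathway made up most of the others. Nkd1, an intracellular antagonist that acts on Dishevelled (chr8:88521354-88594884), was at 254 CPM in upper and 24.1 in deep cells, and was found in 54.0% of thinned upper cells, 8% of deep cells and 4.87% of endothelial cells (70.6% and 12.4% of upper and endothelial cells without thinning). Nkd2 was at 64.5 and 12.9 CPM. Dkk1, a secreted inhibitor that binds the Lrp co-receptors, was at 72.2 CPM (66.8 to 77.9) and 3.01 CPM (1.21 to 6.21). Its relatives had the same direction, with Dkk2 at 32.0 and 4.31 CPM and Dkk3 at 85.2 and 13.8. Frzb, a secreted Frizzled-like inhibitor, had 155 UMIs in upper cells and 1 in deep cells. Axin2, a common readout of β-catenin activity, was at 34.0 and 7.75 CPM, and the DNA-binding partners Lef1 and Tcf7 at 42.9 and 31.7 in upper and 12.1 and 3.01 in deep cells.

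Not every Wnt gene followed. Wnt5a, a ligand that acts largely without β-catenin, was at 18.6 CPM in upper and 18.5 in deep cells, and the secreted inhibitor Sfrp2 at 383 and 445. The lower genes were the R-spondin receptors Lgr4, at 13.6 and 45.6 CPM, and Lgr5, at 3.61 and 17.2.

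LEF and TCF factors bind a core that reads CTTTGA on one strand and TCAAAG on the other. Of the 13 higher Wnt genes, 11 matched the RefSeq promoter table (GRCm38.p6), with 16 entries. Of the 16, 4 (25%) held the motif on either strand in the 250 bases before the start site, against 13.8% of all 32851 promoters in the table. Of the entries of the 15 highest and the 15 lowest genes against deep cells, 1 of 6 (16.7%) and 2 of 13 (15.4%) held it. A second form searched on both strands, AACAAAG, was in 1 of the 16 (6.25%) and in 5.03% of all promoters. The 30 bases around each match of the first form are shown because these genes shared a direction. The match of the second form, in Dkk1, is not shown. Capitals mark the motif, and each run is given on the strand of the gene. The positions are chr19:30549653-30549682 and chr19:30549596-30549625 for Dkk1 (minus strand), chr2:80447474-80447503 for Frzb (minus strand), chr3:131156102-131156131 and chr3:131156162-131156191 for 1 of the 4 entries of Lef1 (plus strand), and chr7:98835050-98835079 for 1 of the 2 entries of Wnt11 (plus strand).
Dkk1, 174 bases before the start site: gaggggagagtgTCAAAGtcctccctgctt
Dkk1, 117 bases before the start site: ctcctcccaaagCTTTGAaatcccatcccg
Frzb, 95 bases before the start site: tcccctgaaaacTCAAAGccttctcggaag
Lef1, 180 bases before the start site: taaaatacatggTCAAAGgaaaataggtat
Lef1, 120 bases before the start site: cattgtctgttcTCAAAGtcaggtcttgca
Wnt11, 50 bases before the start site: gacgtgggcggaTCAAAGcgacggtccgcg

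A match describes letters, not a bound site. The genes were chosen by their values in these same cells and gave only 16 entries, so the shares above are not read as enrichment. Nkd1, Nkd2, Axin2, Tcf7, Dkk2, Rspo1 and Wnt16 held none of these letters in their windows. The Nkd1 window (chr8:88527383-88527632) lay inside the gene span given above, so the bases before the first base of that span were not searched. Rspo3 and Dkk3 had no entry.

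**Figure D3:**
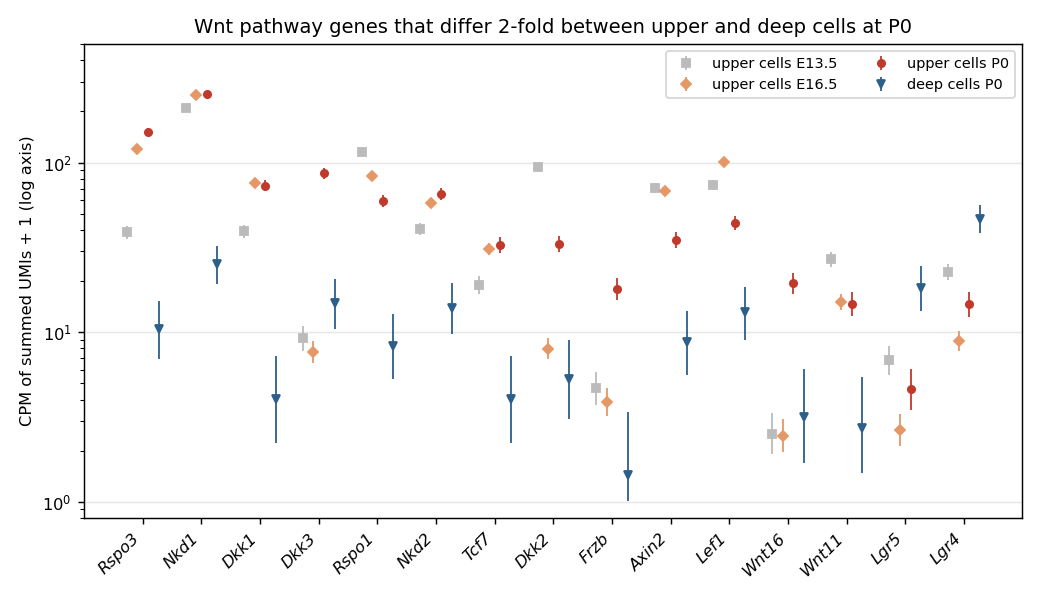
CPM of summed UMIs plus 1, on a log axis, of the 13 Wnt genes at least 2-fold higher and the 2 at least 2-fold lower in upper than in deep cells at P0, shown in upper cells of each stage and in deep cells at P0; bars are exact Poisson 95% limits. Nkd1 lay between 208 and 254 CPM in upper cells of all 3 stages, whereas Dkk3, at 85.2 CPM at P0, lay at 6.61 at E16.5.

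Of 23 Fgf and Igf genes compared with deep cells, 2 were higher and 11 lower, beside 2.98% and 3.88% of all genes, with a median of −0.50. The receptors Fgfr4 and Fgfr1 were at 43.3 and 293 CPM in upper and 1.72 and 117 in deep cells. The growth factors Igf2, Igf1 and Fgf7 were lower, at 27.9, 48.4 and 2.19 CPM against 214, 119.7 and 19.4. Of 27 Bmp and Tgf-beta genes compared, 2 were higher and 3 lower. The ligand Bmp4 was at 60.6 and 15.9 CPM and the antagonist Grem1 at 15.97 and 1.72. The lower ones were the antagonist Chrdl1, the ligand Tgfb2 and the target Id3.

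Of 11 hedgehog genes compared, 1 was higher and 0 lower, beside 2.98% and 3.88% of all genes. The higher one was Gas1, a co-receptor, at 901 CPM in upper and 312 in deep cells. The targets Gli1 and Ptch1 were at 49.7 and 73.8 CPM against 31.4 and 39.2. Of 28 secreted signals and guidance genes compared, 14 were lower and 1 was higher, beside the same shares of all genes. The higher one was the neurotrophin Bdnf, at 20.3 and 2.58 CPM.

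Of 31 dermal transcription factors compared, 9 were higher and 4 lower in upper cells, beside 2.98% and 3.88% of all genes. Besides Trps1 and Osr2, the higher ones were Tcf4, at 656 and 149 CPM, Twist1, the relative of the rule gene Twist2, at 219 and 71.5, Sox11, at 52.2 and 8.61, and Lef1, Zic1, Creb5 and En1. The lower ones were Nfib, at 62.9 and 259 CPM, Ebf1, at 363 and 956, Nr2f2 and Meox1.

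Matrix genes are given by list, beside 2.98% higher, 3.88% lower and a median of 0.10 over all genes compared. Of 21 collagen genes compared, 4 were higher and 7 lower in upper cells, with a median of −0.33. Of 17 elastic fibre and lysyl oxidase genes compared, 1 (Fbln2) was higher and 5 (Mfap5, Efemp1, Lox, Fbn1 and Emilin2) lower, with a median of −0.21. Col7a1, the anchoring fibril that ties the dermis to the epidermal basement membrane, was at 200 CPM in upper and 30.1 in deep cells, and Col26a1, Col23a1 and Col8a1 were also higher. Col4a1 and Col4a2, the chains of basement membrane collagen, were lower, at 113 and 72.9 CPM against 518 and 387. The abundant chains were closer, with Col3a1 at 14765 and 13909 CPM and Col1a1 at 10005 and 12555.

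Of 19 basement membrane genes compared, 0 were higher and 9 lower, beside 2.98% and 3.88% of all genes, with a median of −0.92. Nid1, nidogen, was at 53.6 CPM in upper and 238 in deep cells, and the laminin chain Lamc1 at 34.5 and 133. Pericyte genes moved with them: 7 of 10 compared were lower in upper cells, Rgs5 at 40.5 and 342 CPM, and their part was not tested. Of 8 small leucine-rich proteoglycans compared, Lum was higher, at 3872 and 1185 CPM, which is 1.70 on the log2 scale (interval 1.64 to 1.76), and Prelp, Ecm2 and Fmod were lower, with a median of −0.81 over the list.

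Of 13 imprinted growth genes compared, 7 were at least 2-fold lower and 1 higher, beside 3.88% and 2.98% of all genes, and their median was −1.02 beside 0.10. Igf2, the noncoding H19, the cycle inhibitor Cdkn1c and Mest were at 27.9, 467, 417 and 115 CPM in upper and 214, 1455, 1859 and 528 in deep cells. The higher one, Nnat, had 220 UMIs in upper cells and 0 in deep cells.

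Against all 1220 other P0 cells with the same zeros, which include cells with pericyte, fat and immune genes as well as fibroblasts, 135 of 11047 genes (1.22%) were at least 2-fold higher in upper cells and 388 (3.51%) at least 2-fold lower. The 10 highest included Dclk1, Dkk1, Stmn2, Crabp1, Rspo3, Gm1673, Col26a1 and Nkd1. Dclk1, a doublecortin-like kinase, was at 230.4 CPM (221 to 241) against 38.0 (34.0 to 42.2) in the others. The 10 lowest were Cd74, Retn, Rbp4, Igfbp7, Lpl, Mfap5, Fabp4, Mt1, Rgs5 and Pf4. Cd74, the invariant chain of antigen-presenting cells, was at 6.01 against 175 CPM, and Retn, resistin of fat cells, at 2.63 against 117. All 12 keratinocyte genes were at least 2-fold lower than in the others, where they summed to 7162 CPM. Of 36 Wnt genes compared here, 9 were higher and 4 lower, with a median of −0.04 beside 0.01 for all genes.

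With each cell thinned to 3500 UMIs, 25.3% of upper cells (369 of 1460, interval 23.1% to 27.6%) had at least 3 UMIs of 20 G2 and M phase genes, against 15.7% of deep cells (11.7% to 20.3%) and 26.97% of endothelial cells (21.7% to 32.7%). At full depth these shares were 29.9%, 23.7% and 42.3%. In the 231 upper cells with at least 2500 genes, the share was 67.5%. For 20 S phase genes the thinned shares were 34.2% of upper and 23.7% of deep cells. Upper cells of E16.5 and E13.5 had G2 and M phase shares of 48.5% and 67.0%. Of the 20 G2 and M phase genes, 7 were at least 2-fold higher in upper than in deep cells and 0 lower, beside 2.98% and 3.88% of all genes. One of the higher ones was Birc5, survivin, at 276 and 112 CPM. Free RNA can add to such counts, and its part was not tested.

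The members fell into groups by other genes. A neighbour graph of the 1460 cells, built without the genes of the rule and cut by the Leiden method, gave 8 groups, numbered by size and described by their leading genes only. Those genes were found on the same cells, so they are descriptions. Group 1 (308 cells) was led by Dpp4, Cnp, Grem1 and Fibin, and had the highest Lum (6543 CPM) and Gja1 (1236 CPM). Group 4 (240 cells) was led by Ptgds, Pmel, Dct and Kcnk2, and had the highest Wls (1089 CPM), Crabp1 (516 CPM), Rspo3 (273 CPM), Nkd1 (383 CPM) and Dkk2 (109 CPM). Pmel and Dct are pigment cell genes, and 8 Schwann cell and melanocyte genes summed to 263 CPM in group 4 and at most 52.2 CPM in the others.

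Group 2 (272 cells) was led by Car3, Cfd, Trf and Adipoq, of which Car3, Cfd and Adipoq are genes of fat cells, and its 12 adipocyte genes summed to 1642 CPM, against 172 to 453 CPM in the others. Of the 1066 Car3 UMIs of all members, 950 lay in group 2, and 969 lay in the 447 cells at U − D = 2, the edge of the rule. Group 2 had the highest Dkk1 (201 CPM), Trps1 (343 CPM), Bmp4 (137 CPM) and Tcf7 (64.0 CPM), and Lum at 1869 CPM. The 20 dermal condensate and papilla genes summed to 721.8 CPM in group 2, against 197.7 to 531.9 CPM in the others. In groups 4 and 1 Dkk1 was at 7.99 and 10.2 CPM. Group 5 (182 cells) was led by C1qtnf3, Thbs2, Sfrp2 and Serpinf1 and carried the most deep genes of the rule (mean D 2.74). It had Sfrp2 at 1356 CPM, Dlk1 at 1636, Col1a1 at 21663, and the lowest Rspo3 (42.8 CPM).

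Group 3 (251 cells) was led by the cell division genes Ube2c, Cenpf, Hist1h2ap and Ccnb1, with a G2 and M phase sum of 8478 CPM and a median of 7407 UMIs. Group 7 (89 cells) was led by globins, followed by the replication genes Mcm5, Mcm3 and Pcna, with an erythroid sum of 8735 CPM. Group 6 (92 cells) was led by Acta2, Rgs5, Mylk and Tinagl1, of contractile cells and pericytes, with Rgs5 at 533 CPM against at most 14.4 in the others. Group 8 (26 cells) was led by Krt1 and Perp, with 20409 CPM of keratinocyte genes, a median of 10289.5 UMIs, and 12 of the 21 members that the doublet caller Scrublet marked. Genes of other cell types thus led groups 2, 4 and 7 in part as well. Without the 118 cells of groups 6 and 8 alone, 314 genes were higher and 409 lower than in deep cells.

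**Figure D4:**
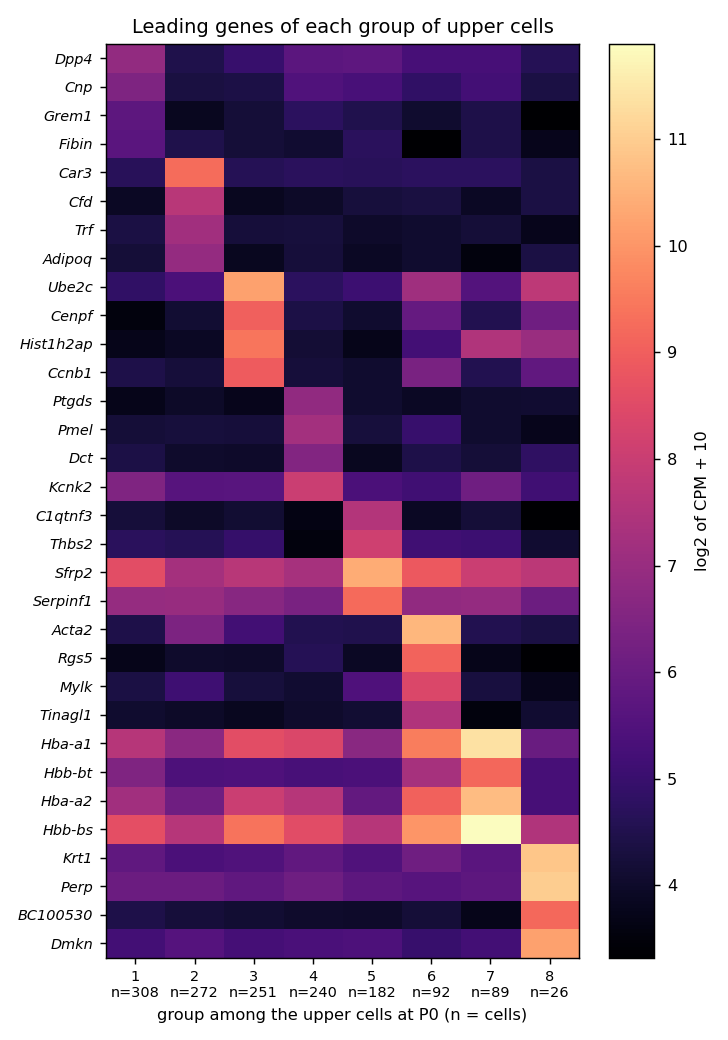
Levels, as log2 of CPM + 10, of the 4 leading genes of each of the 8 groups among the 1460 upper cells at P0 (columns, with the number of cells). Groups 6 and 8 stand out by Acta2 and Rgs5 and by Krt1 and Perp, group 3 by Ube2c and Ccnb1 and group 7 by globins, which also reach other groups.

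The same rule gave 1943 upper and 197 deep cells in the E16.5 library and 1352 upper cells in the E13.5 library. Over 11646 genes, 250 (2.15%) were at least 2-fold higher in upper cells at P0 than at E16.5 and 334 (2.87%) at least 2-fold lower, and the median was −0.13. On the scale of log2(CPM + 10), which lowers the differences of genes with few UMIs, the first of the 10 highest genes at P0 was Cpe, carboxypeptidase E, at 412 CPM (399 to 425) against 7.95 at E16.5 (6.79 to 9.26) and 61.9 at E13.5. Osr2 was at 792, 50.6 and 55.8 CPM at the 3 stages. Ramp1, a receptor activity-modifying protein, Cd9 and Anxa1 were at 136, 595 and 381 CPM at P0 and 4.07, 83.0 and 34.6 at E16.5. The fat genes Fabp4 and Car3 were also among the 10 highest, with Fabp4 at 190.4 and 16.1 CPM and Car3 at 1066 UMIs at P0 and 1 at E16.5. Members at the edge of the rule carried most of these UMIs: 969 of the 1066 of Car3 and 1174 of the 1741 of Fabp4 lay in the 447 cells at U − D = 2, and at U − D of 3 to 5 Car3 was at 12.9 to 23.3 CPM and Fabp4 at 82.8 to 93.2 CPM. Of 10 adipocyte genes compared between stages, 3 were higher and 1 lower. Of 5 erythroid genes, 0 were higher and 4 lower at P0. The erythroid genes summed to 1401 CPM in upper cells at P0, 5205 at E16.5 and 8582 at E13.5. Their part in these differences was not tested.

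Of 18 immediate early and dissociation genes, 10 were higher and 1, Fosb, was lower at P0 than at E16.5, beside 2.15% and 2.87% of all genes, with a median of 1.10 beside −0.13. The heat shock gene Hspa1a was at 252 and 2.11 CPM and the phosphatase Dusp1 at 349 and 42.4. The list summed to 5367 CPM in upper cells at P0, 8685 in deep cells at P0 and 2426 in upper cells at E16.5. Digestion differed between these libraries, and stage and digestion cannot be told apart.

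The 10 largest deficits at P0 included Igf2, Igfbp5, Crabp1, Kitl and histone genes. Igf2 (chr7:142650766-142666816) was at 27.9 CPM at P0 (24.6 to 31.5) and 573 at E16.5 (562 to 583), and Igfbp5 at 17.1 and 369. Crabp1 was at 193 and 1679 CPM, and Kitl, the growth factor of melanocytes and mast cells, at 9.73 and 134. The histone genes Hist1h2ae, Hist1h1b and Hist1h2ap were at 9.40, 19.7 and 162 CPM against 169, 243 and 1294. Tex15, Gm42418 and AY036118 were also among the 10, and the last 2 are uncertain, since they lie over ribosomal RNA repeats.

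Of 38 Wnt genes compared between stages, 5 were higher and 4 lower at P0, beside 2.15% and 2.87% of all genes, with a median of 0.01 beside −0.13. The same shares of all genes stand beside the lists that follow. Dkk3 was at 85.2 CPM at P0 and 6.61 at E16.5, Sfrp2 at 383 and 67.2, and Wnt16, Dkk2 and Frzb were also higher. Lef1 was at 42.9 and 99.4 CPM, Wnt5a at 18.6 and 54.9, and Sp5 and Wnt4 were also lower. Of 36 dermal transcription factors compared, 3 were higher (Osr2, Meox2 and Creb5) and 8 lower (Runx1, Runx2, Nfib, Prrx1, Prrx2, Osr1, Foxd1 and Lef1). Of 17 elastic fibre genes compared, 3 were higher and 0 lower, with elastin (Eln) at 534 and 118 CPM, Loxl1 at 164 and 40.3 and Fbln5 at 155 and 47.0. Of 14 imprinted growth genes, 0 were higher and 5 lower.

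The difference between upper and deep cells was also taken in the E16.5 library, where 160 of 11273 genes (1.42%) were at least 2-fold higher in upper cells and 312 (2.77%) at least 2-fold lower. Of the 292 genes higher at P0, 288 could be compared at both stages and 80 (27.8%) were higher at E16.5 too, 54.4% of the 147 such genes there. Of the 380 lower at P0, 318 could be compared at both and 157 (49.4%) were lower at E16.5 too, 56.9% of 276. The same rule chose the cells in both libraries. Trps1, Nkd1 and Rspo3 had log2 differences of 3.21, 2.47 and 2.297 at E16.5, and Mfap5 and Postn of −4.28 and −3.93. Others were smaller there, with Gja1 at 2.75 at P0 and 0.52 at E16.5, Wls at 2.59 and 0.26, Dkk3 at 2.00 and −0.01 and Col26a1 at 3.30 and 0.73.

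**Figure D5:**
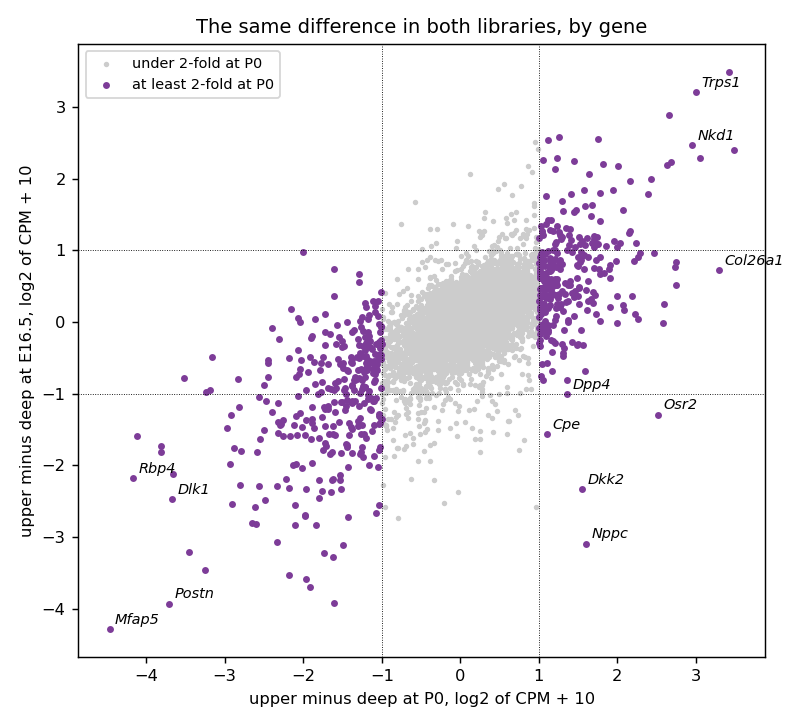
Upper minus deep difference of each gene, as log2 of CPM + 10, at P0 (x axis) and at E16.5 (y axis); purple points are at least 2-fold at P0 and dotted lines mark 2-fold. Dkk2, Osr2, Cpe, Dpp4 and Nppc, at the lower right, are the 5 genes of 9616 that were at least 2-fold higher in upper cells at P0 and at least 2-fold lower at E16.5; Nppc was named after its values were seen.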

How the data were processed

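Back skin of mice was profiled in 3 libraries, 1 per stage. Per the study's methods and the submitters' processing notes, reads were aligned and UMIs counted with Cell Ranger 2.2.0 on mm10, cells with few genes were removed, and the authors deposited natural log values: each cell's UMIs were scaled to a total of 10000 and 1 was added before the log. Whole UMIs were recovered from these values, since each was a whole multiple of the value of 1 UMI in its cell (0 of 48197283 values deviated by more than 0.001). UMIs were summed over the cells of a group and given as CPM with exact Poisson 95% limits, and shares of cells have exact binomial limits. Differences are of log2(CPM + 10), for genes with at least 50 UMIs in both groups together, with counting intervals; a gene was called at 2-fold. For shares, each cell was thinned to 3500 UMIs. Endothelial cells, with a UMI of both Cdh5 and Pecam1, gave the share set beside those of fibroblasts. Doublets were marked with Scrublet in scanpy 1.11.5 (146 of 5065 P0 cells, 21 of them members) and kept. Member groups came from 1000 genes, 20 components, 15 neighbours and Leiden resolution 0.8. Resolutions of 0.5 and 1.0 gave 7 and 11 groups instead of 8. Only the difference of summed UMIs was tested on simulated data. Those data were drawn with counting error alone, so variation between cells or libraries was not covered. Python 3.11.15, numpy 2.4.6 and scipy 1.17.1 were used.

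Named genes were the 15 highest and 15 lowest against deep cells, the 10 highest and 10 lowest in each of the other comparisons, and the members of gene lists; some of these genes are not reported here. The members and lists were chosen with earlier results of these data known. Gene positions are from GENCODE on GRCm38, the build of mm10. Alternatives changed the threshold, zeros, depth, doublets, number added to CPM, weighting of cells and gene filter.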

Additional observations from a re-analysis of the deposited data

Results flagged for a closer look

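Listed or named genes whose difference between upper and deep cells had opposite directions at P0 and E16.5, each at least 2-fold, are given here, and the difference between stages was not tested, with 1 library per stage. Dkk2, a secreted Wnt inhibitor, had a log2 difference of 1.56 at P0 and −2.34 at E16.5, with 32.0 and 4.31 CPM in upper and deep cells at P0 and 6.99 and 75.8 at E16.5. Osr2 had 2.51 at P0 and −1.30 at E16.5, with 792 and 131 CPM at P0 and 50.6 and 139 at E16.5. Cpe had 1.11 and −1.57, with 412 and 186.0 CPM at P0 and 7.95 and 43.2 at E16.5. Dpp4, a surface peptidase, had 1.36 and −1.005, with 43.2 and 10.8 CPM at P0 and 4.79 and 19.7 at E16.5. In Osr2, Cpe and Dpp4 the upper cells of P0 stood above the other groups given here, whereas in Dkk2 the deep cells of E16.5 were the highest.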

How the results depend on the processing

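Every comparison rests on 1 library per stage, the P0 library had the lowest median depth (6797 UMIs a cell, against 11021 at E16.5), and genes under 50 UMIs were not compared. No paired analysis was possible because each stage has 1 library and no result comes from a test. The 30 genes named against deep cells kept their direction and at least 2-fold in each of the 11 or 12 settings that gave a value. Of the called genes that are named or listed, 143 of 175 (81.7%) were still called at U − D of at least 1, and 99 of 130 (76.2%) without cells that had a UMI of 6 fat or pericyte genes. For results that moved, the cause was not tested. Against deep cells, 292 higher genes became 498 at U − D of at least 3, 193 at 1 or more, 472 with 7 more genes at 0 and 824 with 1 added to CPM. The 380 lower genes became 245 in cells with at least 2500 genes, 649 with 1 added and 213 with at least 200 UMIs per gene. Against other cells, 135 higher genes became 290 in cells with at least 2500 genes and 386 with 1 added, and 388 lower genes 255 with 7 more zeros and 1092 with 1 added. Against E16.5, 1 added gave 627 and 1300. A minimum of 2500 genes left 231 members. The G2 and M share of 25.3% became 28.7% at U − D of at least 3, 67.5% with at least 2500 genes, 31.8% at 2 UMIs and 29.9% without thinning. Of the 2 alternatives chosen after seeing the data, leaving out groups 6 and 8 kept each count within 1.5 times. Leaving out cells with a UMI of Rgs5, Kcnj8, Des, Fabp4, Adipoq or Plin1 left 817 upper and 35 deep cells, with 756 genes higher and 240 lower. Log2 differences against deep cells that turned were Krt1 (0.40 at U − D of at least 3, 0.22 with 7 more zeros), Pf4 (0.70 at 3), Cd74 and Krt10 (0.24 and 0.054 with 7 more zeros), Igfbp2 (1.27 with at least 2500 genes), Lyz2 (0.38 without doublets), and Car3 and Socs3 (0.50 and 0.10 without cells with those 6 genes).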

Other observations

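One gene outside the lists, chosen after its values were seen, reversed further than those above. Nppc, the precursor of C-type natriuretic peptide, was at 21.7 CPM in upper cells at P0 and 1.73 at E16.5, and at 0.431 and 90.2 CPM in deep cells, with log2 differences of 1.60 and −3.10. Of 9616 genes compared at both stages, 5 changed direction in this way and 0 in the other.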
